A study of Rattus norvegicus with 12 samples.

Results

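The 5 genes described here are astrocyte genes, and they were followed through the pyramidal cell layer of rat hippocampal area CA1: the water channel Aqp4 (ENSRNOG00000016043), the gap junction protein Gja1 (ENSRNOG00000000805), the glutamate transporters Slc1a3 (ENSRNOG00000016163) and Slc1a2 (ENSRNOG00000005479), and the calcium-binding protein S100b (ENSRNOG00000001295). They were chosen by identifier as genes of astrocyte homeostasis, by a rule that uses no measured value but was made with earlier results of these data known, and are 5 of the 32662 Ensembl identifiers in each deposited table. All 5 had a row and passed the filter on low counts. Their symbols were given with the choice of identifiers. The deposited tables pair no identifier with a symbol, so other genes of the pathway and marker genes of astrocytes or other cell types could not be looked up, and the cell type behind these reads was not checked here.

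The libraries came from adult male Wistar rats, labelled as 45 to 50 days old and 180 to 200 g. Whether this age and weight hold at treatment or at sampling, 6 to 8 weeks after status epilepticus, is not settled here. Epileptic rats had been given kainate, an agonist of ionotropic glutamate receptors, at 5 mg/kg every hour until status epilepticus began, were then given diazepam at 4 mg/kg, and were sampled 6 to 8 weeks afterwards, when epilepsy was chronic. The control group got vehicle only (saline or DMSO) and was otherwise treated alike. Whether control rats also got diazepam is not settled here, since a dose is recorded for epileptic rats only. Seizures were seen at handling or recorded in some of the epileptic rats and in no control, per the labels. From 3 epileptic and 3 control rats, the superficial and the deep sublayer of the pyramidal cell layer were cut separately from 20 µm frozen sections by laser microdissection. This gave 12 libraries in 4 groups of 3 (superficial epileptic, superficial control, deep epileptic and deep control), with the replicate number of a condition read as the animal.

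Astrocytes keep the surroundings of neurons in balance. Slc1a2 (GLT-1) and Slc1a3 (GLAST) take up the glutamate released at synapses, Aqp4 carries water across the astrocyte endfeet that wrap blood vessels, and Gja1 (connexin 43) builds the gap junctions through which astrocytes pass potassium ions and metabolites to each other. S100b is a calcium-binding protein long used as an astrocyte marker, and some oligodendrocytes also make it. In epileptic tissue these systems are studied because extracellular glutamate and potassium govern how excitable neurons are. The microdissected strips were aimed at pyramidal cell bodies, among which astrocytes are a minority.

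The libraries held 20623196 to 25893962 gene counts in epileptic rats and 16135358 to 19550582 in control rats, and the counts of the 5 genes lay between 2533 and 11356 reads per library. Levels are given as CPM, read counts scaled to a common library size with TMM (trimmed mean of M-values) factors, which compares a gene between libraries but not 1 gene with another, since gene length is not taken out. In strips of whole tissue, fewer cells that express a gene and less of its RNA in each cell cannot be told apart. The libraries of epileptic animals 2 and 3 stood apart in their alignments. Outside annotated exons lay 22.3 to 26.7% of the alignments of those 4 libraries, against 37.7 and 43.0% in the superficial and deep libraries of epileptic animal 1. In control libraries the share was 35.8 to 44.0%.

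The 250 bases before the transcription start, from RefSeq, are shown for Aqp4 and Gja1, which had the largest differences between epileptic and control rats, and for Slc1a2, which had the smallest. All 5 symbols matched the RefSeq promoter table, which follows the GRCr8 assembly and not the Rnor_6.0 build of the counts. Where a gene had several starts, the most upstream was used. Capitals mark any match, on either strand, to the AP-1 motif TGANTCA, the STAT motif TTCNNNGAA or the TATA box TATAAA, letters that do not overlap each other here.
Aqp4 (GRCr8, chr18:6798843-6799092, minus strand): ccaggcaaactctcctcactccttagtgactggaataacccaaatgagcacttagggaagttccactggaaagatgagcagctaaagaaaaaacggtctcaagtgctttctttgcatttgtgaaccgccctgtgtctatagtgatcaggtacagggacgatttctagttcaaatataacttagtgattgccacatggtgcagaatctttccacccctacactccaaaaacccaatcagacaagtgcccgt
Gja1 (GRCr8, chr20:36302314-36302563, plus strand): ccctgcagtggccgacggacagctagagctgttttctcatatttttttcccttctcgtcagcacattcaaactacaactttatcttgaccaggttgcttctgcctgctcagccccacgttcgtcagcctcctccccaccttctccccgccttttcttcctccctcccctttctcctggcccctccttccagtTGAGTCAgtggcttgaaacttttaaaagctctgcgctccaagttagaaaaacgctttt
Slc1a2 (GRCr8, chr3:109459859-109460108, plus strand): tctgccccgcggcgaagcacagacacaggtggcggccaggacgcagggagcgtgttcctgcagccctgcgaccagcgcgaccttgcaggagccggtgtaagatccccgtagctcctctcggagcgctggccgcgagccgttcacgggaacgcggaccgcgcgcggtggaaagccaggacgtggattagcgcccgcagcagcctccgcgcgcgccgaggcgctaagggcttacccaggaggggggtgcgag
The only match in the 5 windows was the AP-1 letters TGAGTCA, 58 to 52 bases before the start of Gja1. Over 33469 RefSeq windows of the same length, 6.34% held the AP-1 motif, 7.67% the STAT motif and 12.9% the TATA box. GC content was 44.8% for Aqp4, 51.2% for Gja1 and 71.2% for Slc1a2, against a median of 51.2% over all windows. The motifs were picked after the windows had been seen, and a match is a run of letters, not a shown binding site.

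**Figure D1:**
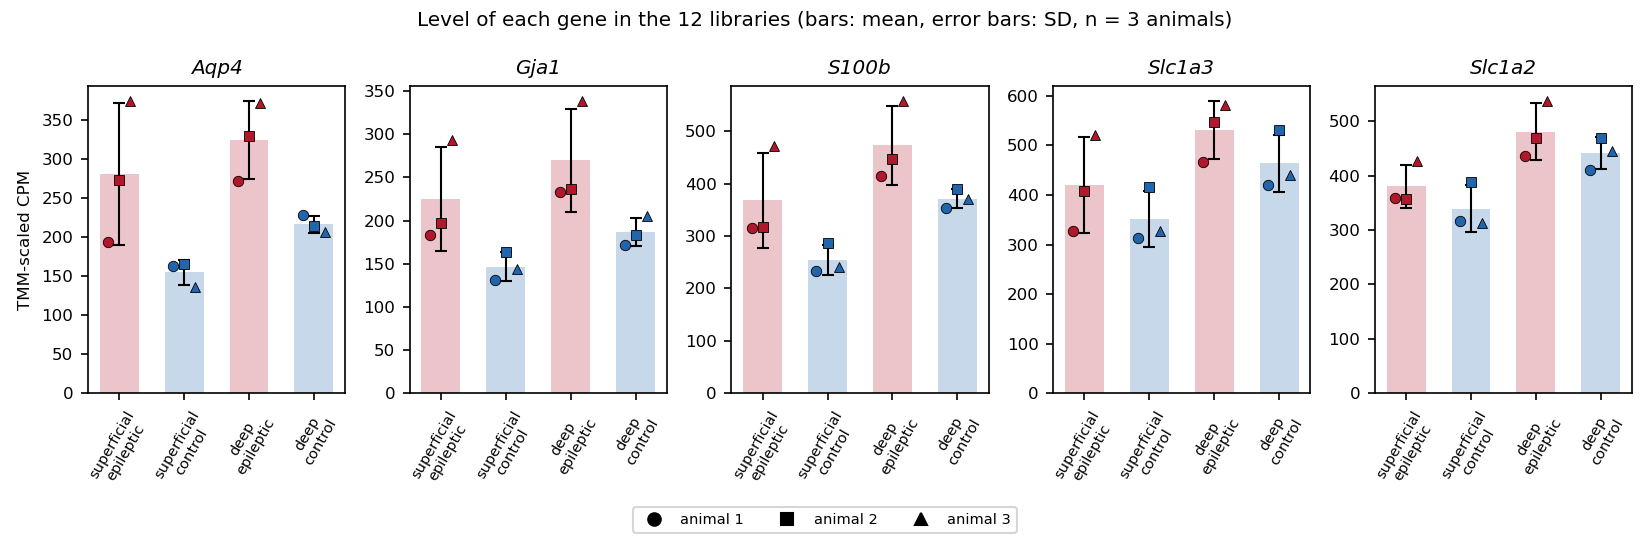
TMM-scaled CPM of each gene (vertical axis, from 0) in superficial and deep libraries of epileptic (red) and control (blue) rats. Bars give the mean and error bars the SD of 3 animals, and the symbols stand for animals 1, 2 and 3 of each condition. Superficial bars stand below deep bars of the same condition for every gene, and epileptic animal 3 is the highest of its group in each panel.

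All 5 genes were lower in superficial than in deep CA1 of control rats. Their log2 fold changes, superficial over deep, were between −0.55 and −0.35, so that superficial tissue held about 0.68 to 0.78 times the deep level. Every one of the 15 comparisons of a gene within a control animal had the lower value in the superficial sublayer, with ratios of 0.650 to 0.895, whereas 23.1% of all identifiers were lower there in each of the 3 control animals. By edgeR's quasi-likelihood test with the animal as a block, 5 of 5 genes passed as lower, against 4.18% of the 14791 identifiers tested. The median log2 fold change of the 5 genes was −0.40, against 0.0079 over all identifiers tested.

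The calcium-binding S100b had the largest of these differences, with 234, 287 and 241 CPM in superficial and 353, 390 and 371 CPM in deep libraries of control animals 1, 2 and 3. The ranges of the sublayers did not overlap. Its log2 fold change was −0.55 (SE 0.06, edgeR adjusted p = 2.9e-05), with an SE taken as the log2 fold change over the root of F. The water channel Aqp4 had 163, 165 and 136 CPM in superficial and 228, 214 and 207 CPM in deep control libraries, again without overlap (log2 fold change −0.49, SE 0.08, edgeR adjusted p = 0.00133).

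Both glutamate transporters were lower by nearly the same factor. Slc1a2 had 316, 389 and 312 CPM in superficial and 410, 469 and 445 CPM in deep libraries of control rats (log2 fold change −0.39, SE 0.05, edgeR adjusted p = 0.00036). Slc1a3 had 312, 415 and 327 CPM in superficial and 421, 530 and 440 CPM in deep libraries (log2 fold change −0.40, SE 0.06, edgeR adjusted p = 0.000656). For Slc1a3 and for Slc1a2 the highest superficial value belonged to animal 2, whose deep value was also the highest. That superficial value still lay below the lowest deep value, so the sublayers' ranges did not overlap for either transporter.

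Gja1, the connexin, had the smallest difference, at 131, 164 and 144 CPM in superficial and 172, 183 and 205 CPM in deep control libraries (log2 fold change −0.35, SE 0.06, edgeR adjusted p = 0.00241). Within animal 2 the superficial library still held 0.895 times the deep level of Gja1. The Gja1 call was lost without control animal 3 (log2 fold change −0.28, edgeR adjusted p = 0.064, range over the alternatives 3.5e-07 to 0.737). Identifiers called in either direction then numbered 420, against 1248 with all animals. They numbered 424 and 416 without control animals 1 and 2, where Gja1 still passed. Without the animal as a block none of the 5 genes passed in control or in epileptic rats, with 5 identifiers called in each.

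In epileptic rats 4 of 5 genes passed as lower in superficial CA1, by edgeR's quasi-likelihood test, against 5.00% of 14791 identifiers. Superficial values were below deep ones in all 3 epileptic animals for these 4 genes, as for 21.0% of all identifiers. S100b had 315, 317 and 472 CPM in superficial and 414, 447 and 558 CPM in deep libraries of epileptic animals 1, 2 and 3 (log2 fold change −0.38, SE 0.06, edgeR adjusted p = 0.000638). Slc1a3 had 328, 409 and 522 CPM in superficial and 465, 547 and 581 CPM in deep libraries (log2 fold change −0.36, SE 0.06, edgeR adjusted p = 0.00145). The sublayers' ranges overlapped for both genes, and animal 3 had the highest value in each sublayer.

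Slc1a2 had 359, 357 and 426 CPM in superficial and 435, 468 and 538 CPM in deep epileptic libraries, without overlap (log2 fold change −0.34, SE 0.05, edgeR adjusted p = 0.000953). Gja1 had 184, 197 and 294 CPM in superficial and 233, 237 and 339 CPM in deep libraries (log2 fold change −0.27, SE 0.06, edgeR adjusted p = 0.00996). Its call was lost without epileptic animal 2 (log2 fold change −0.28, edgeR adjusted p = 0.077, range over the alternatives 9.3e-05 to 0.818). Identifiers called in either direction then numbered 536, against 1484 with all animals.

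Aqp4 was the gene that did not pass, narrowly, in epileptic rats. It had 193, 274 and 375 CPM in superficial and 272, 329 and 371 CPM in deep libraries of animals 1, 2 and 3 (log2 fold change −0.25, SE 0.07, edgeR adjusted p = 0.0509). The superficial level was 0.711 and 0.830 times the deep level in animals 1 and 2, and 1.01 times the deep level in animal 3. Of the 15 comparisons of a gene within an epileptic animal, this was the single one in which the superficial value was not the lower. Without animal 3, Aqp4 passed with a log2 fold change of −0.38 (edgeR adjusted p = 0.000322, range over the alternatives 0.000322 to 0.861), among 2217 identifiers called in either direction. Without animal 1 the log2 fold change was −0.13 (edgeR adjusted p = 0.292), with 1039 called. With all animals, 1484 were called. Aqp4 also passed with no filter on low counts (edgeR adjusted p = 0.000454), by DESeq2 (adjusted p = 0.0424) and by limma-voom with quality weights (adjusted p = 0.00427). These called 2132, 811 and 2585 identifiers in all.

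**Figure D2:**
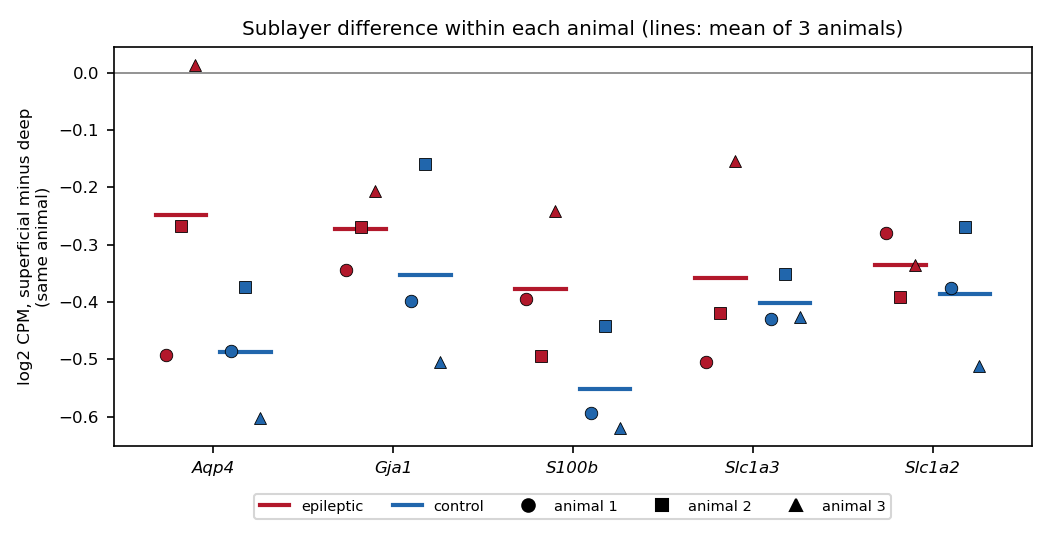
Log2 CPM of the superficial minus that of the deep library of the same animal (vertical axis) for each gene, in epileptic (red) and control (blue) rats. Lines are means of 3 animals, and all points but Aqp4 of epileptic animal 3, at 0.01, lie below 0.

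Whether epilepsy changed the sublayer difference was tested directly, as the difference of the 2 log2 fold changes, epileptic minus control. None of the 5 genes passed, nor did any of the 14791 identifiers (background 0%), by edgeR's quasi-likelihood test. Aqp4 had the largest value, at 0.24 (SE 0.11, 95% interval 0.01 to 0.47, unadjusted p = 0.0414, edgeR adjusted p = 0.743). S100b followed at 0.18 (SE 0.08, 95% interval 0.0060 to 0.34, unadjusted p = 0.0433, edgeR adjusted p = 0.743). These were the 2 genes with an unadjusted p below 0.05, a mark that 6.60% of all identifiers reached, and neither DESeq2 nor limma-voom called any of the 5, with 2 and 107 calls over all identifiers.

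The values of the connexin and the transporters were nearer to 0, at 0.08 for Gja1 (95% interval −0.10 to 0.26), 0.05 for Slc1a2 (−0.11 to 0.21) and 0.04 for Slc1a3 (−0.14 to 0.22). The Aqp4 value was 0.11 without epileptic animal 3 and 0.36 without epileptic animal 1, and the S100b value 0.11 without epileptic animal 3. Without control animal 3 the Gja1 value was 0.0045. That of Slc1a3 was −0.056 without epileptic animal 3, and that of Slc1a2 −0.013 without control animal 3.

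Levels in epileptic and control rats were then compared within each sublayer. No gene of the 5 passed in superficial CA1 (background 0.0140% of 14321 identifiers) or in deep CA1 (background 0% of 14261) by edgeR's quasi-likelihood test on 3 epileptic against 3 control animals. With the replicate number as a block, Aqp4 and Gja1 passed in deep CA1, among 239 identifiers called in all. None of the 5 genes passed in superficial CA1 under that block, with 25 identifiers called. Aqp4, Gja1 and S100b nevertheless had every epileptic value above every control value in both sublayers, while Slc1a3 and Slc1a2 overlapped. That is 3 of 5 genes, against 10.3% of 14791 identifiers in superficial and 8.88% in deep CA1 with all epileptic values the higher. The same 3 genes had an unadjusted p below 0.05, as had 10.2% of identifiers in superficial and 8.22% in deep CA1 on the higher side. The median log2 fold change of the 5 genes was 0.56 in superficial and 0.35 in deep CA1, against 0.0068 and 0.00093 over all identifiers tested.

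Aqp4 had 193, 274 and 375 CPM in superficial libraries of epileptic animals, against 163, 165 and 136 CPM in control animals. Its mean was 280 ± 90.9 CPM in epileptic and 155 ± 16.2 CPM in control rats (SD, n = 3 each). The log2 fold change was 0.88 (SE 0.24, 95% interval 0.30 to 1.46, edgeR adjusted p = 0.178, and 0.184 with the replicate number as a block). In deep CA1 it had 272, 329 and 371 CPM in epileptic and 228, 214 and 207 CPM in control animals (log2 fold change 0.59, SE 0.12, 95% interval 0.31 to 0.86, edgeR adjusted p = 0.131, and 0.0465 with replicate number as a blocking term). The groups were apart in both sublayers, and the epileptic animals spanned a wider range than the controls in each.

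Gja1 had 184, 197 and 294 CPM in superficial epileptic libraries, against 131, 164 and 144 CPM in control libraries (log2 fold change 0.64, SE 0.19, 95% interval 0.18 to 1.10, edgeR adjusted p = 0.19). The deep libraries held 233, 237 and 339 CPM of Gja1 in epileptic and 172, 183 and 205 CPM in control rats (log2 fold change 0.53, SE 0.15, 95% interval 0.19 to 0.88, edgeR adjusted p = 0.228, and 0.0346 under that block). In each sublayer, epileptic animal 3 stood well above the other two, which lay closer to the controls.

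S100b had 315, 317 and 472 CPM in superficial epileptic and 234, 287 and 241 CPM in superficial control libraries (log2 fold change 0.56, SE 0.18, 95% interval 0.14 to 0.97, edgeR adjusted p = 0.199). Its deep values were 414, 447 and 558 CPM in epileptic and 353, 390 and 371 CPM in control rats (log2 fold change 0.35, SE 0.12, 95% interval 0.08 to 0.63, edgeR adjusted p = 0.276). Animals 1 and 2 were close to each other in both sublayers, and animal 3 was again the highest.

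The glutamate transporters differed least. Slc1a3 had 328, 409 and 522 CPM in superficial epileptic libraries, against 312, 415 and 327 CPM in control libraries (log2 fold change 0.28, SE 0.19, 95% interval −0.17 to 0.72, edgeR adjusted p = 0.446). In deep CA1 its log2 fold change was 0.20 (SE 0.12, 95% interval −0.08 to 0.48, edgeR adjusted p = 0.505), with epileptic values of 465, 547 and 581 CPM and control values of 421, 530 and 440 CPM. The level of epileptic animal 1 lay inside the control range in both sublayers.

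Slc1a2 had 359, 357 and 426 CPM in superficial epileptic and 316, 389 and 312 CPM in superficial control libraries (log2 fold change 0.19, SE 0.12, 95% interval −0.09 to 0.47, edgeR adjusted p = 0.421). The deep values were 435, 468 and 538 CPM in epileptic and 410, 469 and 445 CPM in control rats (log2 fold change 0.12, SE 0.11, 95% interval −0.12 to 0.36, edgeR adjusted p = 0.647). Only epileptic animal 3 exceeded every control animal. The upper ends of these intervals leave room for a moderate increase, so a lack of change in either transporter is not shown.

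**Figure D3:**
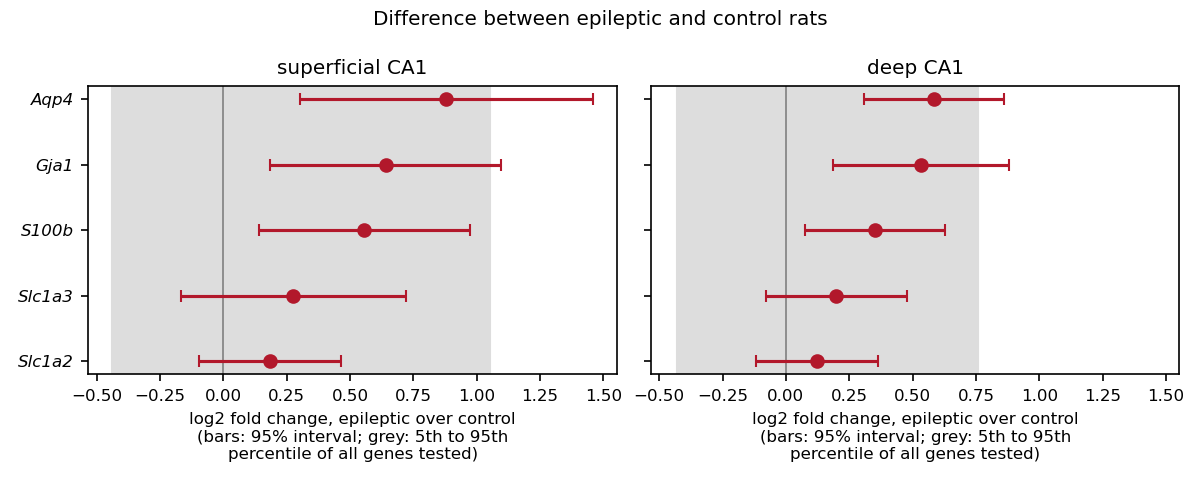
Log2 fold change of each gene, epileptic over control (horizontal axis), in superficial (left) and deep (right) CA1, with 95% intervals from edgeR's quasi-likelihood fit. The grey band spans the 5th to the 95th percentile of all genes tested, and all 5 values lie inside it, Aqp4 farthest to the right at 0.88 and 0.59.

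Which of these genes passed between epileptic and control rats varied with the tool and the animals included. With the replicate number as a block, Aqp4 (edgeR adjusted p = 0.0465, range over the alternatives 0.00113 to 0.504) and Gja1 (edgeR adjusted p = 0.0346, range 0.016 to 0.661) passed in deep CA1. That block called 239 identifiers there in all. None of the 5 genes passed under it in superficial CA1 (Aqp4 adjusted p = 0.184 by edgeR), with 25 identifiers called. In their deviations from the group means, epileptic and control libraries of 1 number had r = 0.104 to 0.244 in deep and 0.00252 to 0.212 in superficial CA1. The number joins different animals of the 2 conditions, and nothing in the labels says what they share. DESeq2 called Aqp4, Gja1 and S100b in superficial CA1, among 885 identifiers in all, and Aqp4 and Gja1 in deep CA1, among 376. Limma-voom with sample quality weights called Aqp4 and Gja1 in superficial CA1, among 1789 identifiers, and Aqp4, Gja1 and S100b in deep CA1, among 2171. With no filter on low counts, Aqp4 passed in deep CA1 (edgeR adjusted p = 0.0364), among 103 identifiers.

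Without epileptic animal 1, Aqp4 passed in superficial CA1 (log2 fold change 1.10, edgeR adjusted p = 0.0277, range over the alternatives 0.00243 to 0.971), among 1443 identifiers called. It also passed in deep CA1 (log2 fold change 0.71, edgeR adjusted p = 0.0162), among 552 called. With all animals, 2 identifiers were called in superficial and 0 in deep CA1. Without epileptic animal 3, Aqp4 passed in deep CA1 (log2 fold change 0.48, edgeR adjusted p = 0.0479), among 275 identifiers called. In superficial CA1 its value was then 0.60 and did not pass, with 409 called. Without the same animal, the log2 fold change of Gja1 was 0.39 in superficial and 0.33 in deep CA1, and that of S100b was 0.32 in superficial and 0.22 in deep CA1. The transporters were then at 0.08 for Slc1a3 and 0.09 for Slc1a2 in superficial CA1, and at 0.13 and 0.035 in deep CA1. None of these values passed. Over all single animals left out, Slc1a3 ranged over 0.08 to 0.44 in superficial and 0.13 to 0.30 in deep CA1, and Slc1a2 over 0.09 to 0.29 in superficial and 0.035 to 0.20 in deep CA1. Slc1a3 and Slc1a2 passed in none of the alternatives tried in either sublayer.

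Alignment shares moved with the condition. The share outside exons was 37.7, 25.3 and 25.6% in superficial libraries of epileptic animals 1, 2 and 3, against 42.2, 35.8 and 40.7% in control libraries. In deep libraries it was 43.0, 26.7 and 22.3% in epileptic and 44.0, 40.4 and 43.9% in control animals. Alignments to several places made up 30.6, 42.3 and 42.5% in superficial epileptic and 28.0, 34.8 and 30.5% in superficial control libraries, and 25.2, 37.9 and 45.6% in deep epileptic and 25.9, 28.5 and 27.3% in deep control libraries. The most abundant identifier took 11.0, 18.7 and 19.1% of gene counts in superficial epileptic and 8.24, 8.35 and 9.37% in superficial control libraries, and 16.6, 22.8 and 22.5% in deep epileptic and 11.2, 12.97 and 11.7% in deep control libraries. All 3 shares set the libraries of epileptic animals 2 and 3 apart from the other 8. With the exon-external share in the model, an alternative added after the data had been seen, the log2 fold changes in superficial CA1 were 0.30 for Aqp4, 0.26 for Gja1 and 0.24 for S100b, and those in deep CA1 were 0.33, 0.29 and 0.13, none of which passed. With the covariate, Slc1a3 was at −0.20 and Slc1a2 at −0.00098 in superficial CA1, and they were at −0.020 and −0.045 in deep CA1. The fit with the covariate called 5 identifiers in superficial and 99 in deep CA1. Beyond this fit, the part of these shares in the epilepsy values was not tested.

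Animals of the epileptic group were unequal. Relative to the control mean of the sublayer, Aqp4 stood at 1.25, 1.77 and 2.42 times in superficial and 1.26, 1.52 and 1.72 times in deep CA1 of epileptic animals 1, 2 and 3. Gja1 stood at 1.26, 1.34 and 2.01 times in superficial and 1.25, 1.27 and 1.81 times in deep CA1. Slc1a2 ranged only between 0.986 and 1.26 times the control mean over the 6 epileptic libraries.

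Across the superficial libraries the SD of log2 CPM of Aqp4 was 0.48 in epileptic and 0.16 in control rats, and that of Gja1 was 0.36 in epileptic and 0.17 in control rats. S100b had SDs of 0.33 in epileptic and 0.16 in control rats. Slc1a3 had 0.33 in epileptic and 0.22 in control rats, and Slc1a2 0.15 in epileptic and 0.18 in control rats. The median SD over all identifiers was 0.20 in epileptic and 0.12 in control superficial libraries. In deep libraries the SD of Aqp4 was 0.23 in epileptic and 0.07 in control rats, that of Gja1 0.30 in epileptic and 0.13 in control rats, and that of S100b 0.22 in epileptic and 0.07 in control rats. Slc1a2 had 0.15 in epileptic and 0.10 in control deep libraries, and Slc1a3 0.16 in epileptic and 0.18 in control deep libraries. The median over all identifiers was 0.21 in epileptic and 0.13 in control deep libraries. The epileptic SD was thus the higher for all genes but Slc1a2 in superficial and Slc1a3 in deep CA1. Differences in spread between groups of 3 were not tested.

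Ratios of 2 genes within a library do not depend on library size or scaling, so each gene was also set against Slc1a2. Slc1a2 was taken as the base after it had been seen to differ least, so the ratios restate the differences in level on a scale free of normalization and are given without a test. In superficial CA1 there were 53.9, 76.7 and 87.9 Aqp4 reads per 100 Slc1a2 reads in epileptic animals 1, 2 and 3, against 51.5, 42.5 and 43.5 in control animals. In deep CA1 the numbers were 62.4, 70.3 and 69.0 in epileptic and 55.6, 45.7 and 46.4 in control animals. The groups did not overlap in either sublayer, although epileptic animal 1 came close to control animal 1 in superficial CA1.

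For Gja1 there were 51.3, 55.1 and 68.9 reads per 100 Slc1a2 reads in superficial epileptic libraries, against 41.3, 42.2 and 46.2 in control libraries. Deep libraries held 53.6, 50.6 and 63.0 in epileptic and 41.9, 39.1 and 46.0 in control animals. S100b had 87.9, 88.9 and 111 reads per 100 Slc1a2 reads in superficial epileptic and 74.0, 73.7 and 77.2 in superficial control libraries, and 95.2, 95.5 and 104 in deep epileptic against 86.0, 83.1 and 83.3 in deep control libraries. Every epileptic ratio lay above every control ratio for Gja1 and S100b in both sublayers. The share of other identifiers whose ratios to Slc1a2 part the groups, as these and that of Aqp4 do, was not computed. In control rats the superficial library of each animal also had a lower S100b ratio than its deep library, as had epileptic animals 1 and 2 but not animal 3.

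The mean log2 ratio to Slc1a2 was higher in epileptic than in control rats by 0.64 for Aqp4, 0.42 for Gja1 and 0.35 for S100b in superficial CA1, and by 0.45, 0.39 and 0.22 in deep CA1. The ratio of the 2 transporters, Slc1a3 to Slc1a2, overlapped between the conditions, with differences of 0.07 in superficial and 0.08 in deep CA1.

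**Figure D4:**
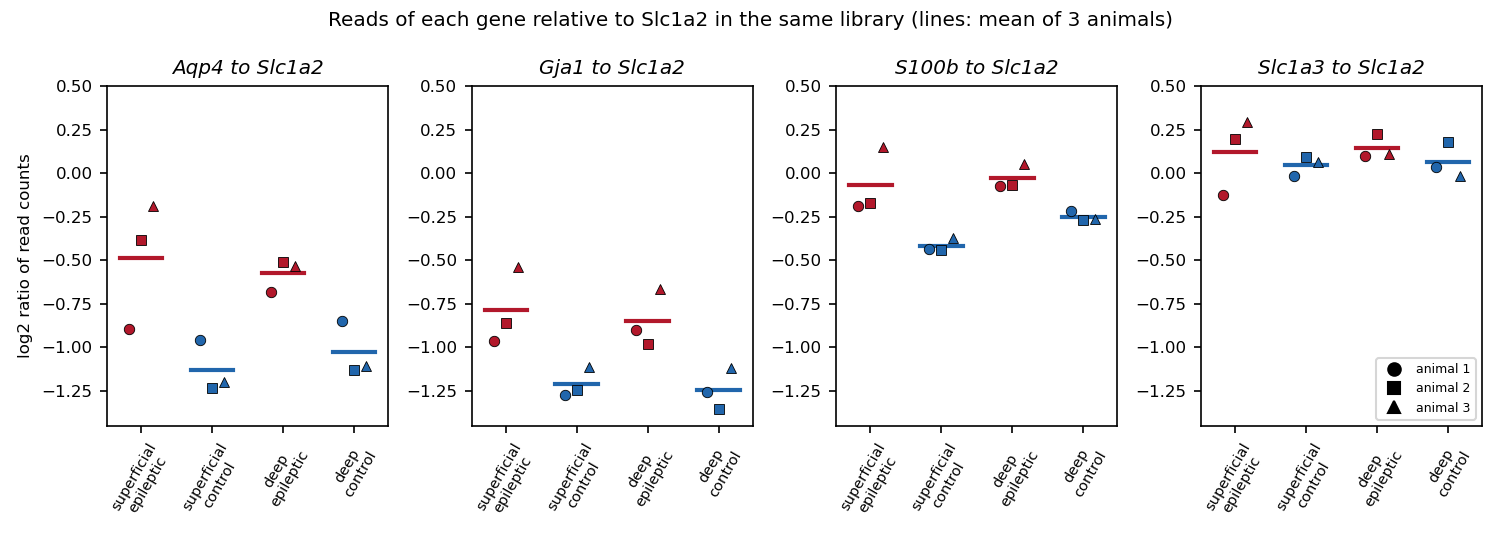
Log2 ratio of the reads of Aqp4, Gja1, S100b and Slc1a3 to those of Slc1a2 in the same library (vertical axis), in superficial and deep libraries of epileptic (red) and control (blue) rats. Lines are means of 3 animals. Epileptic points lie above control points for Aqp4, Gja1 and S100b in both sublayers, and overlap them for Slc1a3.

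Summed over the 5 genes, the level was 1379, 1553 and 2088 CPM in superficial epileptic libraries and 1156, 1421 and 1161 CPM in superficial control libraries. In deep CA1 the sums were 1820, 2028 and 2386 CPM in epileptic and 1585, 1786 and 1667 CPM in control animals. The sums of epileptic and control rats overlapped in superficial CA1 through control animal 2, and did not in deep CA1. The sums include both transporters, which differed least.

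The 5 genes varied together over the 12 libraries, with Pearson's r of log2 CPM between 0.728, for Aqp4 and Slc1a2, and 0.947, for Gja1 and S100b. The libraries come from 6 animals and share sublayer and condition, so r is a description and carries no test. Slc1a3 and Slc1a2 had r = 0.935. Of 9391 other identifiers with a mean log2 CPM of at least 3, 93 had r above 0.9 with the mean standardized profile of the 5 genes. The closest were ENSRNOG00000006030 (r = 0.986) and ENSRNOG00000018494 (r = 0.981), for which no gene name was at hand. Taken alone, Gja1 had 129 such identifiers, S100b 95, Aqp4 76, Slc1a3 28 and Slc1a2 21.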

How the data were processed

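RNA of 12 libraries was sequenced, and the authors deposited 1 table of raw counts per library, whole reads per Ensembl gene identifier without normalization. Build Rnor_6.0 and the tools STAR 2.5.0c, HTSeq 0.6.1, SAMtools 0.1.19 and FastQC 0.11.3 are listed in the submitters' processing notes, while settings and the use of strand are not given in the sources used here. Reads of overlapping or antisense genes may therefore not be told apart. The 5 summary tallies per table entered neither library sizes nor tests. They put 22.3 to 44.0% of alignments outside annotated exons, 25.2 to 45.6% at several places in the genome and 0.207 to 0.300% in more than 1 gene, which left 28.6 to 35.1% with a gene.

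Tests were run with edgeR 4.0.16 under R 4.3.3 (filterByExpr with minimum count 10 and minimum total 15, TMM, robust quasi-likelihood test, Benjamini-Hochberg adjustment over all identifiers tested, threshold 0.05). Epilepsy was tested separately in the 6 superficial and the 6 deep libraries. Sublayers, and the change of their difference, came from a fit to all 12 libraries in which every animal had its own term. CPM used TMM-scaled library sizes, and log2 CPM a prior count of 2. The 95% intervals use the t quantile of the fit's degrees of freedom. Alternatives were RLE scaling, no filter, DESeq2 1.42.0, limma 3.58.1 with voom quality weights, blocks, 1 fit of 4 groups, leaving out each animal, and, added after the data had been seen, a covariate for the alignments outside exons.

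Superficial and deep libraries with the same replicate number were read as 1 animal, since the labels describe both sublayers as dissected from the brains of 3 epileptic and 3 control rats. Their deviations from the group means had r = 0.316 to 0.770. Epileptic and control libraries of 1 number correlated at 0.104 to 0.244 in deep and 0.00252 to 0.212 in superficial CA1. The block on this number was tried in both sublayers as an alternative. Replicates differed by a chi-square of 6.84 to 115 per identifier, so none was a duplicate. An epilepsy p-value rests on the spread between animals, a sublayer p-value on that of differences within animals. The 5 genes and the lists were chosen with earlier results of these data known. All 5 were to be named in each comparison, with called genes of further lists and the genes most like them. Those lists were not analysed here, since 0 of 32662 identifiers could be paired with a symbol, and for likeness 2 identifiers are named. No p-value was adjusted over the 5 genes alone.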

Additional observations from a re-analysis of the deposited data

How the results depend on the processing

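The number of the 5 genes that passed between epileptic and control rats was 0 in both sublayers, and it changed with the test. In deep CA1, where the main fit called 0 identifiers in all, it was 1 of 103 called with no filter on low counts and 2 of 376 by DESeq2. It was 3 of 2171 by limma-voom with quality weights and 2 of 239 with the replicate number as a block. When 1 animal was left out it was 0 to 1, with 0 to 552 called in all. In superficial CA1, where the main fit called 2 identifiers in all, it was 3 of 885 called by DESeq2 and 2 of 1789 by limma-voom. It was 0 of 25 with the replicate block (Aqp4 adjusted p = 0.184 by edgeR). When 1 animal was left out it was 0 to 1, with 0 to 1443 called in all. With no filter on low counts it was 0 of 130 called in superficial CA1. RLE scaling, 1 fit of all 12 libraries and the covariate gave 0 in both. They called 8, 48 and 99 identifiers in deep CA1 and 2, 279 and 5 in superficial CA1. For the sublayer difference, 5 genes passed in control and 4 in epileptic rats, among 1248 and 1484 identifiers called in either direction. The number was 0 in both without the animal as a block ("no replicate block"), with 5 identifiers called in each. When 1 animal was left out it was 4 to 5 in control rats, with 416 to 2071 identifiers called. In epileptic rats it was then 3 to 5, with 536 to 2217 called. Otherwise it was 5 in control rats, with 815 to 2523 called, and 4 to 5 in epileptic rats, with 811 to 2585 called. The test of the change in sublayer difference called 0 of the 5 genes in all alternatives, with 0 to 178 identifiers called in all.

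Directions turned only for the transporters. With the alignment share outside exons in the model, the epilepsy log2 fold changes were −0.20 for Slc1a3 and −0.00098 for Slc1a2 in superficial CA1 and −0.020 and −0.045 in deep CA1. Leaving out 1 animal moved the change in sublayer difference over −0.056 to 0.12 for Slc1a3 and −0.013 to 0.11 for Slc1a2, and the superficial difference in the Slc1a3 to Slc1a2 log2 ratio over −0.013 to 0.20. The cause was not tested. Each gene had at least 2533 reads in every library, so that counting error was small beside the spread between animals.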
